A study of Rattus norvegicus with 10 samples.

Results

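Fos, Jun and Egr1 are 3 immediate early genes, here followed in the whole kidney of the rat with and without water. They were taken from a table of 32623 annotated genes by Ensembl identifier and chromosome, and all 3 were found and passed the filter on low counts that left 15047 genes for testing. Male Sprague-Dawley rats, an outbred strain, either had free access to water (control, 5 animals) or had none for 72 hours (dehydrated, 5 animals). Both groups were killed between 10am and 12pm, per the labels, which give no age and no genotype. Polyadenylated RNA of each animal's kidney was sequenced as 1 library, with 29454213 to 35898689 fragments assigned to genes per library. The stated purpose of the series was to find genes of osmoregulation.

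Immediate early genes are transcribed without any need for new protein synthesis, because the factors that switch them on are already present in the resting cell and are activated by kinases. Their messenger RNAs rise fast after a stimulus and are short-lived. Fos and Jun encode basic leucine zipper proteins that pair to form the transcription factor AP-1; Jun can also pair with itself, whereas Fos needs a partner. Egr1 encodes a zinc finger transcription factor that binds GC-rich sites. Growth factors, ischaemia and osmotic stress are known inducers of such genes in kidney cells.

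Fos (ENSRNOG00000008015) lies on chromosome 6 of assembly Rnor_6.0, from 109300433 to 109303299 on the plus strand, with 4 annotated exon ranges and a summed exonic length of 1589 bp. Jun (ENSRNOG00000026293) lies on chromosome 5, from 114011189 to 114014277 on the minus strand, as 1 exon range of 3089 bp without introns. Egr1 (ENSRNOG00000019422) lies on chromosome 18, from 27657628 to 27661429 on the plus strand, with 2 exon ranges and 3130 bp. No other annotated gene overlaps any of the 3 loci, on either strand.

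Promoter windows were planned for all 3 genes, and that of Egr1 is shown because it was the only one found. Serum response factor, one of the best known activators of immediate early genes, binds CArG boxes, and this window carries a pair of them. Of the 3 genes, 1 was matched by symbol in the promoter table used here, from RefSeq on assembly GRCr8. That assembly differs from the one used for counting, so the coordinates are not to be mixed. The window is chr18:26736828-26737127, plus strand, 250 bases before and 50 bases from the annotated start. Capitals mark the CArG boxes, a run of A and T bases between CC and GG that reads as a CArG box on both strands.
Egr1: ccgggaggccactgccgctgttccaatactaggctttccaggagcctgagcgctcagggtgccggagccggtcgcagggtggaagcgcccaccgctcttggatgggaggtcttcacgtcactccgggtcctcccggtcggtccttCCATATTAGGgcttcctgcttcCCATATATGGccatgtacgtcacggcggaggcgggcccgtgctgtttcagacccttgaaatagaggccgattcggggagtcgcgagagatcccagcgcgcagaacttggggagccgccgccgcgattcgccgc
The boxes begin 105 and 83 bases before the start. A CArG box is held by 548 of the 33469 promoter windows of the table (1.64%), and 2 or more by 7 windows (0.0209%). The core of the cyclic AMP response element, TGACG on either strand, occurs in the Egr1 window in 2 places, 135 and 66 bases before the start, and in 21.2% of all windows. This core and the count of windows with 2 or more CArG boxes were added after the Egr1 window had been read. These letters were not matched in the Egr1 window on either strand: the full cyclic AMP response element TGACGTCA (held by 1.83% of all windows), the AP-1 site TGANTCA (7.33%), the EGR site GCGNGGGCG (4.98%) and the TATA box TATAAA (14.2%). A match is a description of the sequence and not a measured binding site.

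The library names of control replicate 6 and dehydrated replicate 6 each carry the letter of the other group. Titles and treatment labels agree for all 10 libraries and were followed, and results are also given without these 2 libraries. Because whole kidney was sequenced, more RNA per cell and more cells expressing a gene cannot be told apart. Kidney cell type markers could not be looked up, since the tables used here pair 0 Ensembl identifiers with symbols.

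Fos was higher in the dehydrated kidneys, about 3.20-fold, and its groups did not overlap. Egr1 was 2.39-fold higher on average but narrowly missed the threshold, with dehydrated kidneys that ranged from the control level to several times above it. Jun, by far the most abundant of the 3, did not pass the test and its dehydrated kidneys all fell inside the control range. Of all tested genes, 8.47% were called by edgeR's quasi-likelihood test at a Benjamini-Hochberg adjusted p below 0.05, 4.70% as higher and 3.77% as lower in dehydrated kidneys. Against that background 1 of the 3 genes was called, and it was higher.

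Fos, the AP-1 partner that cannot act alone, was counted at 19 to 53 fragments per control library and at 58 to 146 per dehydrated library. In CPM, the count divided by the TMM-scaled size of its library, control replicates 2, 3, 4, 5 and 6 had 0.633, 0.617, 1.22, 1.52 and 0.926. Dehydrated replicates 1, 2, 4, 5 and 6 had 3.95, 2.60, 4.91, 2.53 and 1.93 CPM. Every dehydrated kidney thus lay above the highest control kidney, a separation in this direction that 4.39% of tested genes showed. The means were 0.985 ± 0.390 CPM in control and 3.19 ± 1.21 CPM in dehydrated kidneys (SD, n = 5 each). The change of dehydrated over control was 1.68 on the log2 scale (SE 0.30; adjusted p = 0.0037 in edgeR), with a 95% interval of 1.04 to 2.32, or 2.06-fold to 4.99-fold. By size of change Fos ranked 41 of the 15047 genes, and by p-value 286. An exact two-sided permutation of the CPM values gave p = 0.0079, the smallest that 5 against 5 kidneys allow.

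Egr1, the zinc finger factor, was counted at 59 to 187 fragments in control and 150 to 547 in dehydrated libraries. Control replicates 2, 3, 4, 5 and 6 had 2.98, 4.09, 5.01, 5.37 and 2.02 CPM. Dehydrated replicates 1, 2, 4, 5 and 6 had 12.3, 4.75, 18.4, 6.49 and 5.00 CPM. Of the 5 dehydrated kidneys, 3 were above the highest control, among them replicates 1 and 4 by a wide margin, while replicates 2 and 6 were within the control range. The means were 3.90 ± 1.40 and 9.40 ± 5.90 CPM (SD, n = 5 each). The log2 fold change was 1.26 (SE 0.37, 95% interval 0.46 to 2.06), at an unadjusted p of 0.0048 and an edgeR adjusted p of 0.054. The exact two-sided permutation of the 3 genes' CPM gave an unadjusted p of 0.048 for Egr1, the 3 tests being left unadjusted. It did not pass when any 1 of the control replicates, or dehydrated replicate 4, was left out (exact permutation p of 0.0714 to 0.167). Left out singly, control replicate 5 or dehydrated replicates 2 or 6 took the edgeR adjusted p below the threshold (0.0496, 0.0362 and 0.0378). Without dehydrated replicate 4, the highest kidney, the log2 fold change was 0.87 (edgeR adjusted p = 0.124), and over all fits with the titled groups the adjusted p ranged from 0.0362 to 0.170.

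Jun, which forms AP-1 with Fos or with itself, was counted at 1429 to 3422 fragments per library, so that counting alone contributed a coefficient of variation of about 2%. Control replicates 2, 3, 4, 5 and 6 had 77.9, 58.9, 97.5, 97.1 and 49.0 CPM. Dehydrated replicates 1, 2, 4, 5 and 6 had 67.0, 81.4, 79.9, 57.1 and 68.4 CPM. All 5 dehydrated kidneys fell between the lowest and the highest control kidney. The means were 76.1 ± 22.0 and 70.8 ± 10.0 CPM (SD, n = 5 each). On the log2 scale the change was -0.11 (SE 0.17; adjusted p = 0.801 in edgeR), and the exact permutation gave p = 0.675. Its 95% interval, -0.47 to 0.26 or 0.720-fold to 1.20-fold, does not reach the lower bound for Fos, but leaves room for smaller changes in either direction. Without control replicate 4 the Jun estimate was 0.0030, with the sign turned.

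**Figure D1:**
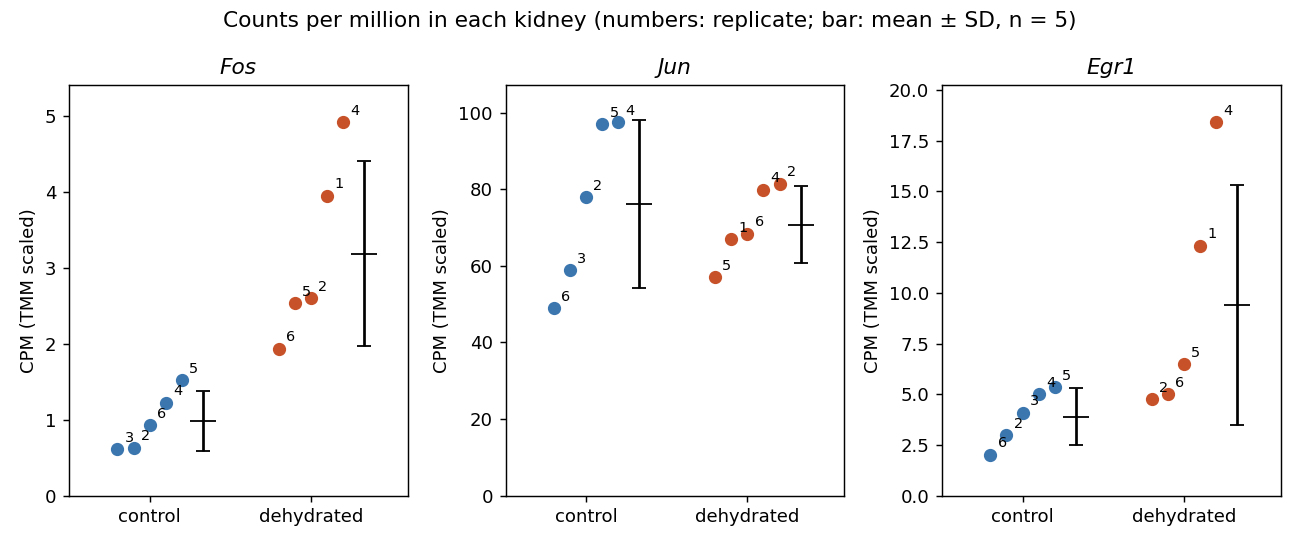
TMM-scaled CPM of Fos, Jun and Egr1 in each of the 10 kidneys; points are kidneys with their replicate number, ordered by value within a group, and bars are the mean ± SD (n = 5). The dehydrated kidneys lie above all controls for Fos (1.93 to 4.91 against 0.617 to 1.52 CPM), within the control range for Jun, and from 4.75 to 18.4 CPM for Egr1, where 2 of 5 overlap the controls.

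Ratios within each library, from which scaling cancels apart from the small prior count added before taking logs, were compared between the groups. With all 10 libraries Fos to Jun and Jun to Egr1 passed the threshold, and Fos to Egr1 did not. The log2 ratio of Fos to Jun lay between -6.81 and -5.64 in controls and between -5.10 and -4.01 after water restriction, with no overlap. Its mean rose by 1.70, a 3.25-fold shift (exact two-sided permutation p = 0.0079, 0.024 after adjustment over the 3 pairs, n = 5 per group). For Jun to Egr1 the log2 ratio went from 4.30 ± 0.34 to 3.10 ± 0.84 (SD, n = 5), a difference of -1.19 (exact permutation p = 0.016, adjusted 0.024). This second difference did not pass without control replicates 2, 4 or 5 (adjusted p of 0.071, 0.071 and 0.060). Without both libraries numbered 6 the exact permutation gave an adjusted p of 0.057 for all 3 pairs, Fos to Egr1 (difference 0.70) included. The smallest unadjusted p that 4 against 4 kidneys allow is 0.029. Fos and Egr1 did not differ past the threshold in their change: the log2 ratio of Fos to Egr1 went from -1.92 ± 0.56 to -1.41 ± 0.39 (SD, n = 5), a difference of 0.51 (exact permutation p = 0.151, adjusted 0.151). Without control replicate 6 that pair gave 0.72 and an adjusted p of 0.048.

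**Figure D2:**
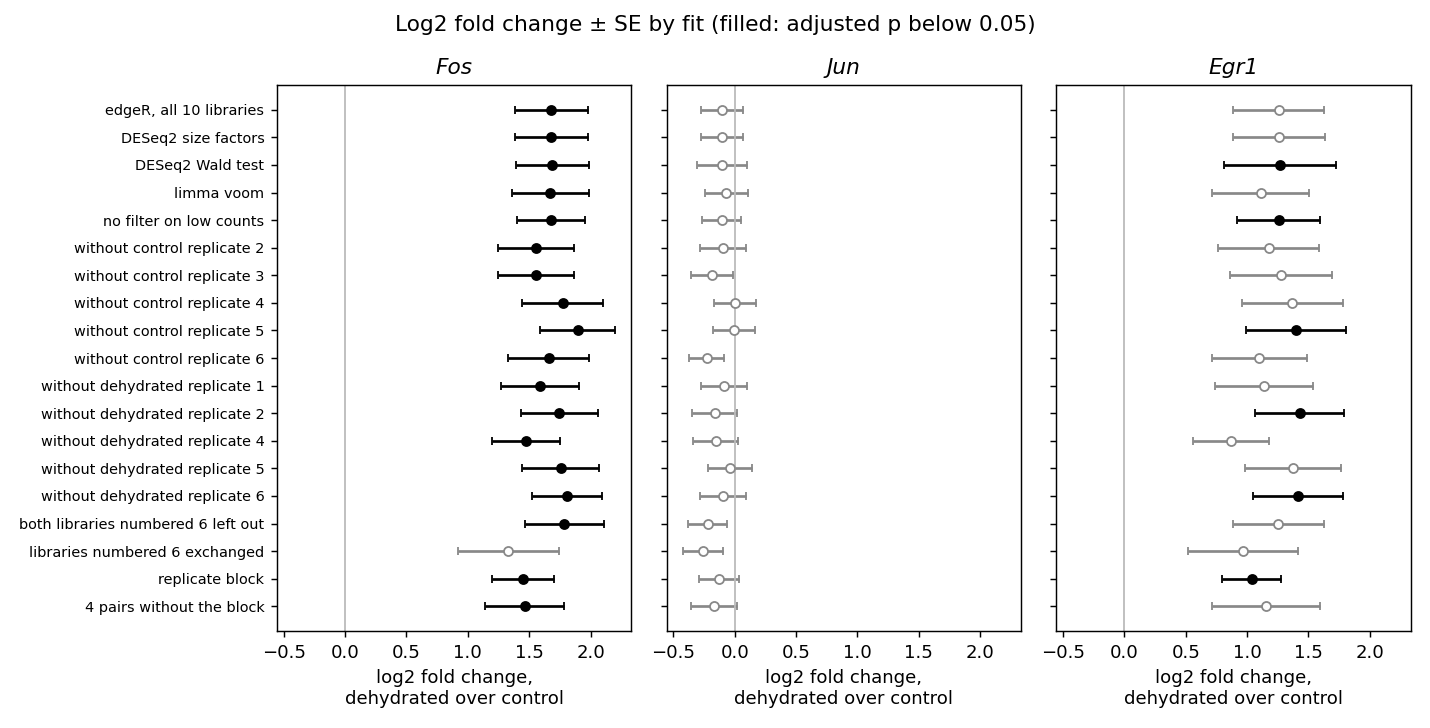
Log2 fold change of dehydrated over control with its SE (horizontal bars) for Fos, Jun and Egr1 under the fit with all 10 libraries and each alternative; filled points have an adjusted p below 0.05. Fos is filled in every fit except that with the libraries numbered 6 exchanged (1.33), Jun is open in every fit (-0.26 to 0.0030), and Egr1 is filled in 6 of the 18 alternatives.

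Without the 2 libraries numbered 6, Fos kept its call, at 1.79 on the log2 scale (SE 0.32; adjusted p = 0.0095 in edgeR). Under the same omission Egr1 had 1.26 (adjusted p = 0.077) and Jun -0.22 (adjusted p = 0.495). In the authors' deposited table, made with DESeq2, the log2 fold changes were 1.69 (SE 0.30, adjusted p = 7.4e-07) for Fos, -0.10 (SE 0.20, adjusted p = 0.858) for Jun and 1.27 (SE 0.46, adjusted p = 0.048) for Egr1. Egr1 was thus under the threshold of 0.05 in the authors' deposited table and just over it in edgeR, on nearly the same fold change.

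Per length of transcript the order of levels was Jun, Egr1, Fos. FPKM, the CPM value divided by the summed exonic length in kilobases, was 24.6 ± 7.11 for Jun, 1.24 ± 0.446 for Egr1 and 0.620 ± 0.246 for Fos in control kidneys (SD, n = 5). In dehydrated kidneys FPKM was 22.9 ± 3.25, 3.00 ± 1.89 and 2.01 ± 0.764 (SD, n = 5). Jun was the highest of the 3 in 10 of 10 kidneys, and its lowest kidney (15.9 FPKM) stood above the highest Egr1 value (5.88 FPKM). Egr1 and Fos were not separated: control kidneys held 0.646 to 1.72 FPKM of Egr1 and 0.388 to 0.958 FPKM of Fos. Within a kidney Egr1 exceeded Fos in 5 of 5 controls and in 4 of 5 dehydrated animals. The mean FPKM of Jun was 39.7 times that of Fos in control and 11.4 times in dehydrated kidneys.

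The kidneys of a group, each sequenced as 1 library, differed widely in these genes. Within groups the SD of log2 CPM was 0.73 for Egr1, 0.53 for Fos and 0.34 for Jun, against a median of 0.14 over all tested genes. A smaller SD was found for 98.8% of tested genes in the case of Egr1, for 96.1% with Fos and for 87.2% with Jun. Genes with few counts spread more through counting, and Fos was among the lower genes, with 16.9% of tested genes below its mean CPM. For Fos the coefficient of variation of CPM was 39.6% in control and 38.1% in dehydrated kidneys, where counting alone gives 17.5% and 9.79%. For Egr1 it was 35.8% in control and 62.8% in dehydrated kidneys, where counting alone gives 8.79% and 5.72%. Jun had 28.9% in control and 14.2% in dehydrated kidneys. A difference in spread between the groups was not detected for any of the 3 genes with all 10 kidneys. From control to dehydrated, the mean absolute deviation from the group median (log2 CPM) changed by -0.03 (Fos), -0.19 (Jun) and 0.22 (Egr1). A two-sided permutation of these deviations over all assignments gave p = 0.873, 0.143 and 0.50 (adjusted over 3 genes 0.873, 0.429 and 0.750). The deviations were taken from the medians of the actual groups before permuting, so these p-values are approximate. Without control replicate 2 the Jun spread passed by the same permutation (-0.27, adjusted p = 0.024). That omission leaves a control group of even size, whose median is no longer a kidney's own value. Its spread is then not measured like that of the dehydrated group, and no difference is read from it.

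**Figure D3:**
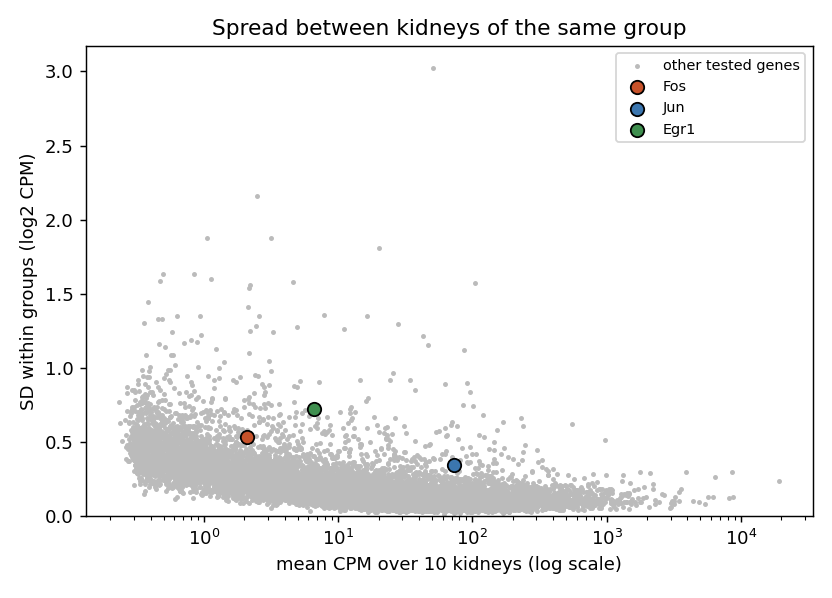
SD of log2 CPM between kidneys of the same group (pooled over both groups) against mean CPM on a log axis, with 1 point per tested gene. Of all tested genes, 98.8% had a smaller SD than Egr1 (0.73), 96.1% than Fos (0.53) and 87.2% than Jun (0.34). No rank among genes of like CPM was computed.

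Pooled over the 10 kidneys, deviations from the group means gave a positive r for each pair of the 3 genes, but no pair passed the test after adjustment. Deviations of log2 CPM from the group mean were used, so that the treatment difference itself does not enter. The 5 kidneys of a group are too few for an r by group, and whether the relations differ between the groups was not tested. For Fos and Egr1 Pearson's r was 0.75 over 10 kidneys (exact permutation within groups p = 0.025, adjusted over 3 pairs 0.074), and Spearman's rho was 0.64 (p = 0.085, adjusted 0.254). Control replicates 4 and 5 and dehydrated replicates 1 and 4 were above their group mean for both genes. Without control replicate 5 and dehydrated replicate 4, the 2 kidneys farthest from the median of Fos, r was 0.55 (exact permutation p = 0.201, n = 8). Leaving out control replicate 5 alone gave r = 0.73, and dehydrated replicate 4 alone 0.64.
For Fos and Jun r was 0.48 (exact permutation p = 0.193, adjusted 0.193, n = 10) and rho 0.43 (p = 0.216, adjusted 0.272), and r without the same 2 kidneys was 0.24. For Jun and Egr1 r was 0.47 (exact permutation p = 0.131, adjusted 0.193, n = 10) and rho 0.38 (p = 0.272, adjusted 0.272). Leaving out control replicates 4 and 6, the farthest for Jun, gave r = 0.22.

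**Figure D4:**
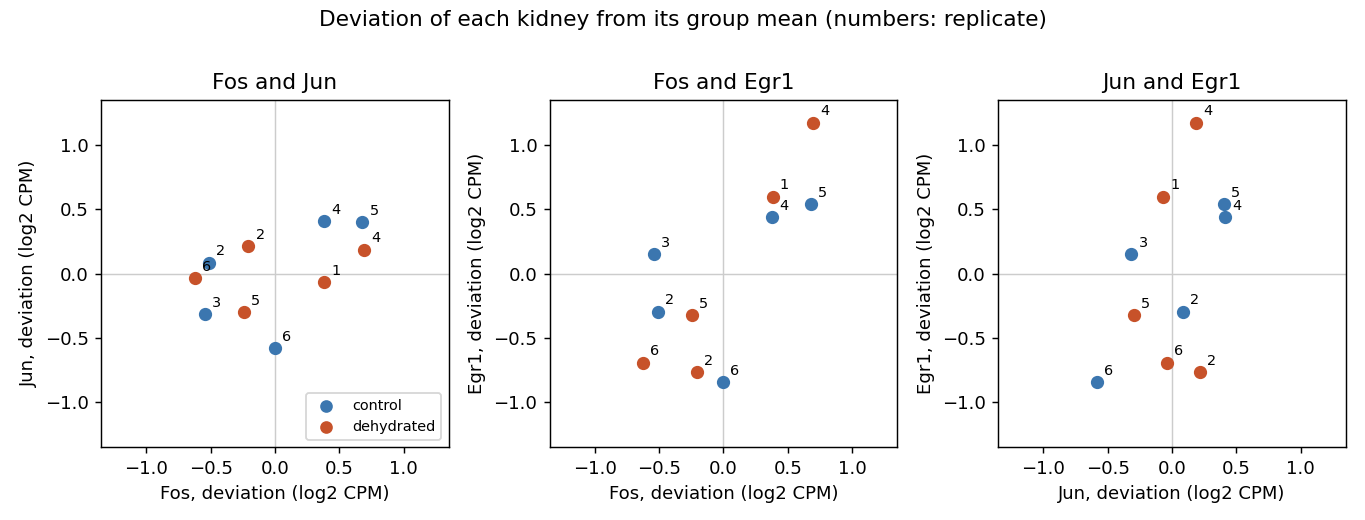
Deviation of each kidney's log2 CPM from its group mean, for the 3 pairs of genes; points are kidneys coloured by group and numbered by replicate. For Fos and Egr1 (r = 0.75) control replicates 4 and 5 and dehydrated replicates 1 and 4 lie in the upper right. In the other 2 pairs r is lower (0.48 and 0.47).

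Set among all genes whose mean reached 2 CPM, Egr1 ranked 57 of 12549 in likeness to Fos by this r, and Fos ranked 78 of 12549 in likeness to Egr1. Jun was further off, at 910 in the order for Fos and 1034 in that for Egr1. In the order for Jun itself, Fos ranked 1829 and Egr1 1917 of 12549, with 14.6% and 15.3% of genes at a higher r. The 2 genes with the highest mean r over the 3 members are given by identifier, since no symbol is paired with them here. ENSRNOG00000042838 (chromosome 19, 26092974 to 26094756, minus strand, 1 exon range) had a mean r of 0.81, with 0.85 to Fos, 0.80 to Jun and 0.78 to Egr1 over 10 kidneys. Its level was 20.9 ± 4.77 CPM in control and 20.3 ± 3.37 CPM in dehydrated kidneys (SD, n = 5), which edgeR put at -0.04 on the log2 scale (SE 0.14; adjusted p = 0.912). Its highest kidneys were control replicate 5 (27.9 CPM) and dehydrated replicate 4 (26.1 CPM), which were also the highest of their groups for Fos and for Egr1. ENSRNOG00000024602 (chromosome 1, 185356975 to 185538694, plus strand, 32 exon ranges) had a mean r of 0.78, with 0.72 to Fos, 0.68 to Jun and 0.93 to Egr1. It too was close to equal in the groups, at 72.0 ± 4.85 and 70.6 ± 3.69 CPM (SD, n = 5; log2 fold change -0.03, SE 0.06, edgeR adjusted p = 0.841). Both genes were picked as the highest of 12547 candidates, so their r is a description.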

How the data were processed

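Raw counts of fragments per Ensembl gene were deposited by the authors, made with featureCounts 1.6.2 from paired-end reads trimmed and aligned with Rsubread; counting was reverse-stranded (setting 2) and used Rnor_6.0 with Ensembl 103 genes, per the file headers. Gene length is the summed exonic length in bp. The authors' deposited table of log2 fold changes, with SE, p-values, adjusted p-values and a mean normalised signal, comes from DESeq2 according to the submitters' processing notes. Its 10 columns of per-library values were not used.

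Counts were tested with edgeR 4.0.16 (glmQLFit, glmQLFTest) in R 4.3.3, with TMM scaling, no covariate and filterByExpr (minimum count 10, minimum total 15). Adjusted p-values cover all 15047 tested genes. SE is the absolute log2 fold change divided by the square root of F, and 95% intervals use its t distribution. Log2 CPM used a prior count of 2. Single values were compared by exact permutation over 252 assignments, correlations over 14400 pairings within groups. The edgeR script was tested on simulated data. Alternatives were DESeq2 1.42.0, limma 3.58.1 (voom), DESeq2 size factors, no filter, each library left out, the libraries numbered 6 left out or exchanged, and the replicate number as a block.

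The 3 genes, lists and tests were chosen with earlier results of these data known. Named genes are the 3 members and, for likeness, the 2 genes of highest mean r. Planned lists of other immediate early genes, phosphatases, upstream factors and cell type markers were not analysed here, since 0 of the 47357 genes of the RefSeq table (GRCr8) carry an Ensembl identifier. Promoters of Fos and Jun and the proteins were not analysed here. Labels name replicates but do not describe rearing or batches. Counting error and the spread between animals set the precision.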

Additional observations from a re-analysis of the deposited data

How the results depend on the processing

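Fos kept its direction and its call in 17 of 18 alternatives. Its log2 fold change was 1.47 to 1.89 when libraries were left out singly (edgeR adjusted p of 0.0023 to 0.012), and 1.33 (adjusted p = 0.363) with the libraries numbered 6 exchanged, which mixes the titled treatments. There edgeR called 0 genes, with 1654 at an unadjusted p below 0.05. Single omissions gave 879 to 1382 called genes against 1275.

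Jun was not called in any of its 18 alternatives, with -0.23 to 0.0030 when single libraries were left out; the sign turned without control replicate 4, where the mean CPM difference was 0.060 (range -12.1 to 0.060). Egr1 crossed the threshold in 6 of 18: 1.27 with the DESeq2 Wald test (adjusted p = 0.0499), 1.26 with no filter (0.037), with the replicate block, and in 3 of 10 omissions (range 0.87 to 1.43, adjusted p of 0.036 to 0.124). The cause was not tested. The Egr1 mean CPM difference of 5.50 lost its permutation call with library totals in place of TMM (5.58, exact permutation p = 0.056), without both libraries numbered 6 (6.13, p = 0.086) and in 6 of 10 omissions (range 3.25 to 6.66).

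With the replicate number as a block over the 4 numbers both groups share, 772 genes were called, and the log2 fold changes were 1.45 (adjusted p = 0.013) for Fos, -0.13 (0.763) for Jun and 1.04 (0.040) for Egr1. The same 8 libraries without the block, added after the data were seen, gave 881 called genes and 1.46, -0.17 and 1.15 (adjusted p = 0.024, 0.711 and 0.170). Deviations of libraries sharing a number had r of -0.054 to 0.14 with no baseline r, so pairing was not decided. The block lowered SE (Fos 0.32 to 0.25, Jun 0.19 to 0.16, Egr1 0.44 to 0.24).

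Without both libraries numbered 6 the log2 ratios of Fos to Jun (1.99) and Jun to Egr1 (-1.29) each had an adjusted p of 0.057, and r of Fos and Egr1 was 0.80 (adjusted p = 0.047). Omitting single libraries gave ratio differences of 1.55 to 1.85 for Fos to Jun, 0.33 to 0.72 for Fos to Egr1 and -1.44 to -0.95 for Jun to Egr1. The same omissions gave r of 0.33 to 0.65 for Fos and Jun, 0.64 to 0.86 for Fos and Egr1 (adjusted p below the threshold without control replicates 3 or 6) and 0.25 to 0.65 for Jun and Egr1. Differences in spread were -0.16 to 0.064 for Fos, with the sign turned without control replicate 5 or dehydrated replicates 2 or 5. They were -0.27 to -0.11 for Jun and 0.010 to 0.38 for Egr1. In each omission the reduced group has an even size, so the groups are not measured alike. Fos, with 19 to 53 fragments in the control libraries, is the gene most limited by depth.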

Other observations

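The genes lying around the 3 loci were examined after the values above were seen, within 500000 bp on either side in Rnor_6.0. Around Fos 16 genes were tested and 0 were called by edgeR at an adjusted p below 0.05, with log2 fold changes of -0.18 to 0.61 (smallest adjusted p = 0.064), all below the 1.68 of Fos. Around Jun 1 of 6 tested genes was called (smallest adjusted p = 0.0034), with log2 fold changes of -0.07 to 0.41. Around Egr1 1 of 17 tested genes was called (smallest adjusted p = 0.0081), with log2 fold changes of -1.20 to 0.33. No tested neighbour was as high as Egr1 itself (1.26), but the lowest was nearly as large in size. Over all tested genes 8.47% were called, and 1.78% had a log2 fold change beyond 1 in either direction. With so few genes around each locus, these counts do not set the loci apart from the rest.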
